A study of Rattus norvegicus with 13 samples.

Results

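The genes described here are those of thyroid hormone activation, inactivation, transport and binding that the array annotation names *Dio1*, *Dio2*, *Dio3*, *Slc16a10*, *Slco1c1*, *Ttr* and *Crym*, which are 7 of the 36174 gene names on the array. The rule uses their names only, and every probe bearing one of the names was kept, which gave 8 probes. RNA of the thyroid was measured on 13 one-colour arrays, taken as 1 animal each, from male Wistar rats at postnatal day 51, 30 days after weaning. In the KI-treated group (6 animals) the mother had received potassium iodide by gavage at 1 mg/kg/day for 8 days from gestational day 9, and in the control group (7 animals) the mother had received saline over the same days. Both groups share the gavage of the mother and differ in what she was given. The litters are not named in the sources used here, so p-values treat the animals as independent although littermates share a mother.

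The thyroid releases mostly the prohormone thyroxine (T4) and less of the active hormone triiodothyronine (T3). Deiodinases are selenoenzymes that remove iodine from these hormones. DIO1 and DIO2 can turn T4 into T3, and DIO3 inactivates both hormones. DIO1 is abundant in the rat thyroid, liver and kidney, and DIO2 makes T3 locally in brain, pituitary and brown fat. T4 and T3 cross membranes through carriers such as the aromatic amino acid transporter encoded by *Slc16a10* (MCT10) and the T4 transporter encoded by *Slco1c1* (OATP1C1), which is best known from the blood-brain barrier. Transthyretin (*Ttr*) carries T4 in plasma and cerebrospinal fluid, and mu-crystallin (*Crym*) binds T3 inside cells.

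The array reads each gene through one 60-base probe, except *Slc16a10*, which has 2 probes, called probe 1 and probe 2 below, probe 1 being the brighter. The probes of *Dio1* and *Dio2* are shown whole because both end, in capitals, on a triplet that can be read as a stop codon, with no earlier such triplet in the same frame. The TGA at the end of the *Dio2* probe can also be read as selenocysteine in a selenoprotein, and the reading frame was not checked against a transcript.

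Dio1: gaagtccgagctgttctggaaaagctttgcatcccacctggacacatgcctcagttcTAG

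Dio2: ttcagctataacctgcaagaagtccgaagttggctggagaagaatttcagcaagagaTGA

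The longest run of bases that these 2 probes share is 9 (gaagtccga), and their GC content was 51.7% for *Dio1* and 43.3% for *Dio2*. In the rat build rn4 named in the array files, the *Dio1* probe lies on the minus strand at chr5:128386555-128386614 and the *Dio2* probe on the minus strand at chr6:114308225-114308284. The first 30 bases of the probes for *Slc16a10* are shown because the gene is read through both, with different results in KI animal 6, the lowest of all animals for probe 1 and among the highest for probe 2.

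Slc16a10 probe 1: gtactttggagaatatagtcatttttactg

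Slc16a10 probe 2: tctacatcattttggaactttttgcaaaat

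Both *Slc16a10* probes map to the minus strand of chromosome 20, probe 1 at chr20:44206504-44206563 and probe 2 at chr20:44211914-44211973, with starts 5410 bases apart. The *Dio3* probe was placed on the unordered part of chromosome 6, the *Slco1c1* probe on chromosome 4, the *Ttr* probe on chromosome 18, and the *Crym* probe carried no mapped position. Of the 8 probes, 7 have a RefSeq accession that pairs with the same symbol in the GRCr8 gene table. The other, *Slc16a10* probe 1, has an accession that the table did not hold.

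Values are given as levels, that is the log2 of the background-subtracted signal minus the 75th percentile of the same array, so a level of 0 is as bright as the spot at that percentile. Levels of different probes are not compared, because probes differ in brightness for equal amounts of RNA. Between 34840 and 41050 of the 58717 gene spots of an array were well above background. The follicular cell markers were bright in every animal, with thyroglobulin (*Tg*) at 7.64 to 8.21 and the iodide transporter *Slc5a5* at 2.68 to 4.75, and only *Slc26a4* of their 9 was not tested. Skeletal muscle markers varied widely, with a mean level of -3.92 to 0.14 in the KI-treated group and -1.72 to 1.94 in the control group. In whole tissue, a lower level cannot be told apart from fewer cells of the type that expresses the gene. Control animals 4 and 6 had the lowest array weights (0.198 and 0.284, where an average array has about 1) and the lowest 75th percentile intensities (1488.9 and 1253.5, against 1578.8 to 2446.9 on the other arrays). The member differences and the differences of the pathway lists were also computed without these 2 animals.

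The probes of *Dio1*, *Dio3*, *Crym* and *Slc16a10* probe 1 were well above background on all 13 arrays. The *Dio2* probe was well above background on 12 arrays, all but control animal 4, and *Slc16a10* probe 2 on 6 arrays, 3 of each group. These 6 probes of 5 genes passed the filter of 6 arrays and were tested. *Slco1c1* was well above background on 2 arrays and *Ttr* on 0, so neither was tested.

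**Figure D1:**
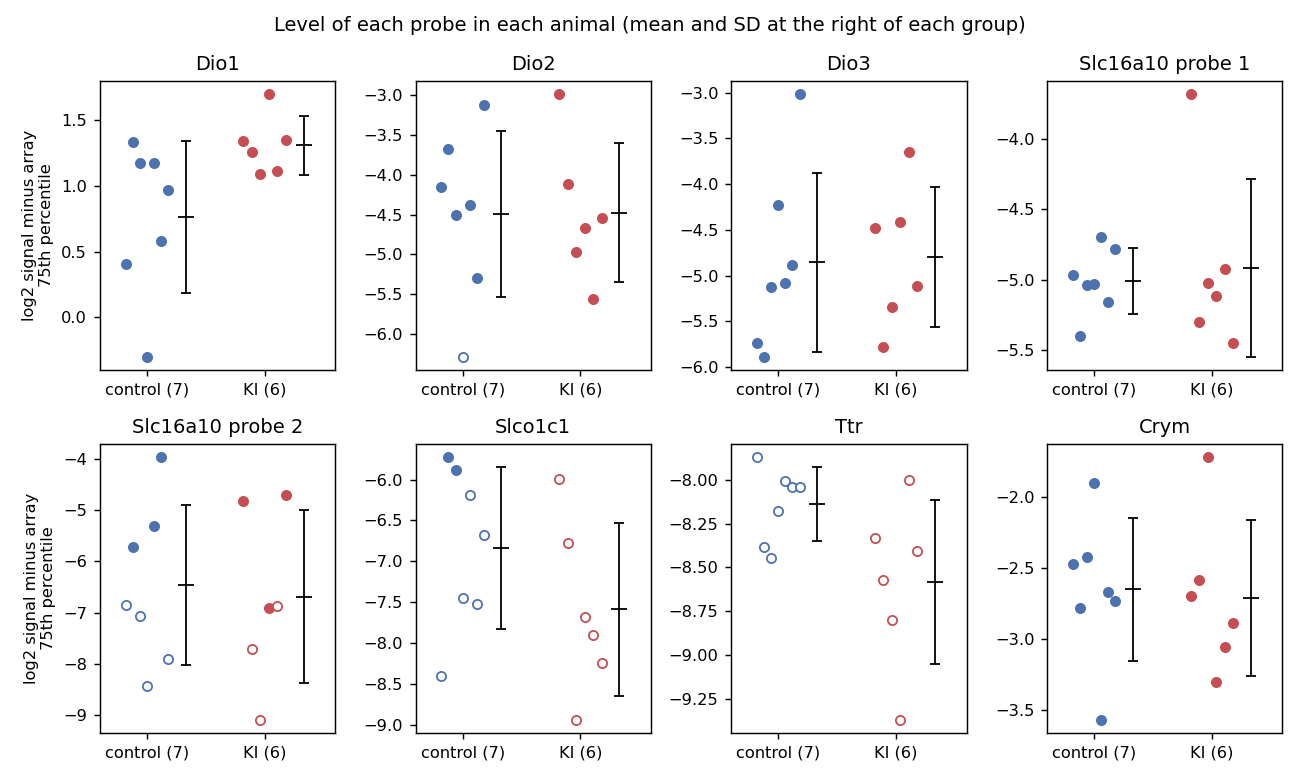
Level of each of the 8 probes (log2 signal minus the array's 75th percentile, vertical axis, with a different scale in each panel) in each of 7 control animals (blue) and 6 KI-treated animals (red), with filled points for arrays where the probe was well above background, open points where it was not, and the mean and SD of each group in black. The 6 KI-treated animals sit between 1.09 and 1.70 for *Dio1*, above 4 of the 7 controls, and both groups overlap for the other probes.

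*Dio1*, the deiodinase long known in the thyroid itself, was the only tested probe of these genes with an unadjusted limma p below 0.05, and it did not pass the threshold after adjustment. Its level in the KI-treated animals 1 to 6 was 1.34, 1.26, 1.09, 1.70, 1.11 and 1.35. Its level in the control animals ran from -0.30 to 1.33 with a median of 0.97. Every KI-treated animal was above the control median, 3 were above all controls, and 4 controls (animals 1, 4, 6 and 7, at 0.41, -0.30, 0.58 and 0.97) were below all KI-treated animals. The mean was 1.31 ± 0.22 (SD, n = 6) after KI and 0.76 ± 0.58 (SD, n = 7) after saline.

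The difference in *Dio1* level was 0.55 on the log2 scale (standard error 0.24, 95% interval 0.04 to 1.05), a 1.46-fold higher signal with an interval of 1.03 to 2.07-fold. An exact permutation test (two-sided, 1716 splits into 6 and 7 arrays) gave p = 0.0455. In limma the unadjusted p was 0.036 and the adjusted p, over 25717 probes, was 0.44. The control group's SD was 2.61 times that of the KI-treated group, and 1.66 times without control animal 4. The pooled within-group SD of *Dio1*, 0.45, was above that of 92.4% of the 1000 tested probes nearest to it in mean level.

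**Figure D2:**
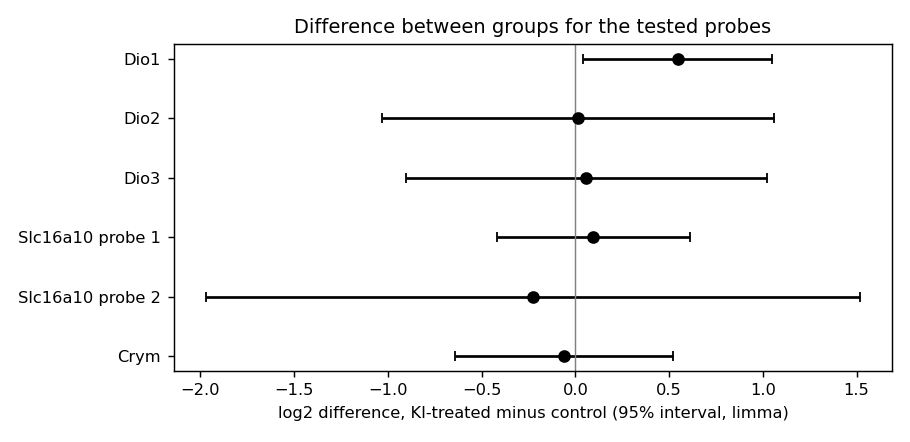
Difference in level, KI-treated minus control (log2, horizontal axis) for the 6 tested probes, with 95% intervals from limma. The interval of *Dio1* runs from 0.04 to 1.05, and the intervals of the other 5 probes include 0.

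Counted over the tested probes of these genes, 0 of 6 passed an adjusted p of 0.05, and 1 of 6 had an unadjusted p below 0.05. Over all 25717 tested probes limma called 0 after adjustment (0%) and 2898 without adjustment, which is 11.3% of them, and 1789 of these (6.96% of the tested probes) were higher in the KI-treated group. With the 75th percentile taken over probes in place of spots the unadjusted count was 3271, of which 1469 were higher and 1802 lower, so the split of directions across the array turned with the scaling (61.7% higher against 44.9%). With normexp and the 75th percentile 34.8% were higher. The methods' t-test called 0 probes after Benjamini-Hochberg adjustment and 2654 without it. The difference of *Dio1* kept its sign in every one of these fits.

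*Dio1* also had a higher mean in the KI-treated animals within each scan session. In the 3 scan sessions the difference in level was 1.03 (2 against 2 animals), 0.40 (3 against 2) and 0.59 (1 against 3). Within the slides holding both groups it was 1.56, 0.51, 0.01, 0.71 and 0.53. With scan session as a block limma gave a difference of 0.66 (adjusted p = 0.199), and with slide as a block 0.62 (adjusted p = 0.352). Slide 6 held 1 control alone, which gives no information on the difference in the fit with slide as a block.

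The size of the *Dio1* difference rested in part on control animal 4. Without it the difference was 0.37, and the exact permutation test gave p = 0.0649 over 924 splits. Without control animals 4 and 6 together it was 0.30 (95% interval -0.07 to 0.66, limma adjusted p = 0.64), and with array weights 0.28 (limma adjusted p = 0.391). Over the removal of each single animal the difference ran from 0.37 to 0.64, the exact p from 0.0152 to 0.0922, and the limma p was below 0.05 in 7 of 13 cases. The 3 lowest *Dio1* levels came from controls 4, 1 and 6, whose 75th percentile intensities were among the 4 lowest, the other being that of control 2, which was at 1.33 for *Dio1*. Across the 13 arrays, with group means subtracted, *Dio1* and the log2 of that intensity had Pearson's r = 0.55 (permutation p = 0.0991, adjusted 0.33 over 10 such relations) and Spearman's rho = 0.51 (permutation p = 0.119). With scan session means also subtracted r was -0.19, and without KI animal 4 and control animal 6 it was 0.58.

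**Figure D3:**
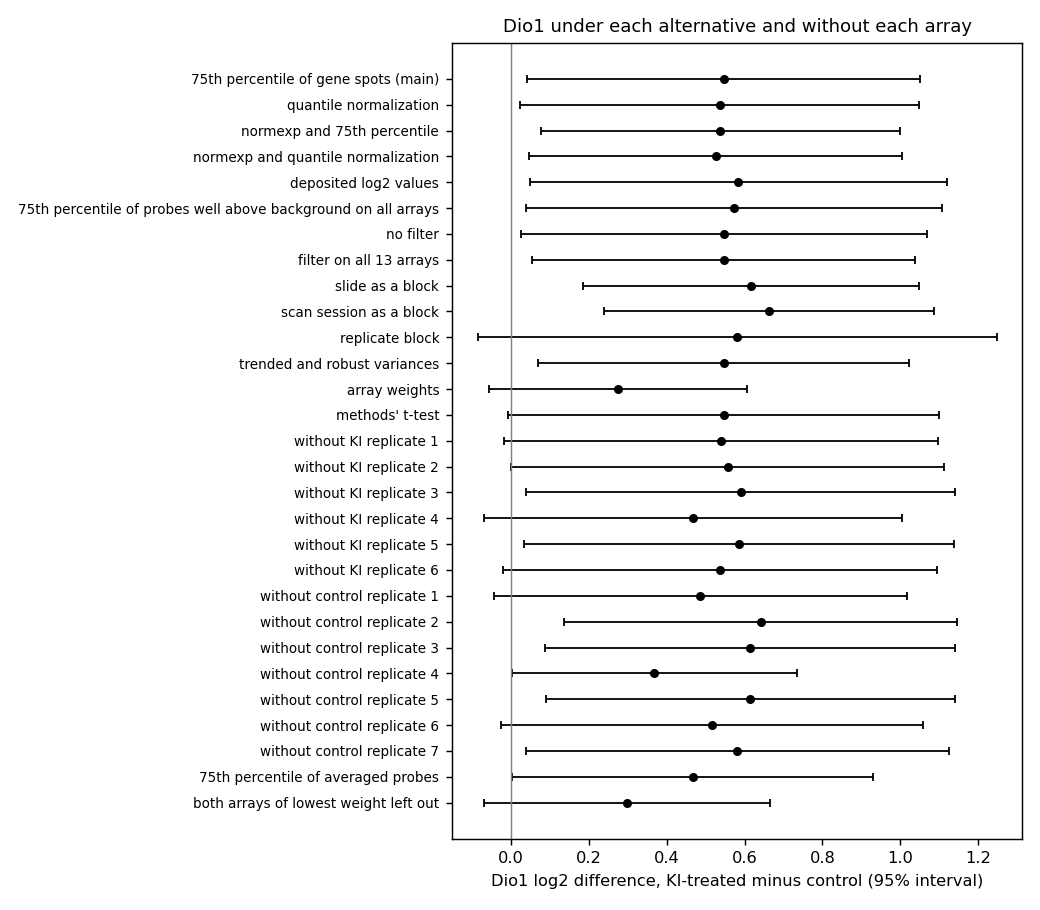
Difference in *Dio1* level, KI-treated minus control (log2, horizontal axis, 95% intervals), under each processing alternative and without each array in turn. All points are above 0, from 0.28 with array weights to 0.66 with scan session as a block.

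*Dio2*, the other deiodinase that makes T3, had a mean level of -4.48 ± 0.87 (SD, n = 6) after KI and -4.49 ± 1.04 (SD, n = 7) after saline. The KI-treated animals 1 to 6 were at -2.99, -4.12, -4.97, -4.67, -5.56 and -4.55, and the controls ran from -6.28 to -3.13 with a median of -4.38. The groups overlapped almost completely, and the lowest value, -6.28 in control animal 4, was not well above background. The difference was 0.01 (95% interval -1.03 to 1.06, exact permutation p = 0.983, limma adjusted p = 0.991), an interval that runs from 0.49 to 2.08-fold. The sign of this difference turned with quantile normalization, with normexp, with the deposited values, with the percentile over probes and with array weights. Without control animals 4 and 6 it was -0.51 (limma adjusted p = 0.746), and within the scan sessions it was 1.25, -0.45 and -0.66.

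*Dio3*, the inactivating deiodinase, averaged -4.79 ± 0.76 (SD, n = 6) after KI and -4.85 ± 0.98 (SD, n = 7) after saline. Its levels in the KI-treated animals 1 to 6 were -4.48, -5.78, -5.34, -4.41, -3.64 and -5.11, and those of the controls ran from -5.89 to -3.02 with a median of -5.08. Control animal 7 was the highest of all and control animal 2 the lowest, so the control range enclosed the KI-treated range. The difference was 0.06 (95% interval -0.90 to 1.02, exact permutation p = 0.91, limma adjusted p = 0.964), or 0.54 to 2.03-fold. Its sign turned with normexp, with the deposited values and with the percentile over probes, and within the scan sessions the difference was -0.999, 1.40 and -0.0025.

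The spread between animals was wide for both of these deiodinases with the main processing. The highest and the lowest animal were 7.32-fold apart for *Dio3*, and 5.94-fold apart for *Dio2* over the 12 animals in which its probe was well above background, all but control animal 4. For *Dio1* they were 4.01-fold apart, or 2.45-fold without control animal 4. The pooled within-group SD of *Dio2* (0.97) was above that of 97.6% of the 1000 tested probes nearest to it in mean level, and that of *Dio3* (0.89) above 94.9% of those nearest to it. The *Dio2* SD includes control animal 4, without which the control SD was 0.74 in place of 1.04, and the 97.6% was not computed without this animal. Over all tested probes the median within-group SD was 0.31. The standard errors of the *Dio2* and *Dio3* differences were 0.49 and 0.45, and 0.24 and 0.23 with normexp and the 75th percentile. The size of the spread of these dim probes thus depended on how background was treated.

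*Slc16a10* was read through 2 probes, of which probe 2 was often at background. Probe 1 read -3.68, -5.30, -5.02, -5.11, -4.93 and -5.45 in the KI-treated animals 1 to 6 and -5.40 to -4.69 in the controls, with a control median of -5.03. KI animal 1 stood alone above all other animals, and the remaining KI-treated animals fell in or next to the control range. The means were -4.92 ± 0.63 (SD, n = 6) and -5.01 ± 0.24 (SD, n = 7), a difference of 0.09 (95% interval -0.42 to 0.61, exact permutation p = 0.826, limma adjusted p = 0.876). Without KI animal 1 the difference was -0.15.

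Probe 2 read -4.83, -7.72, -9.09, -6.92, -6.88 and -4.71 in the KI-treated animals and -8.44 to -3.96 in the controls, with a control median of -6.86. It was well above background in KI animals 1, 4 and 6 and control animals 2, 5 and 6, and the other 7 values lie at background, where they have no order. Its difference was -0.23 (95% interval -1.97 to 1.52, exact permutation p = 0.80, limma adjusted p = 0.916). That difference includes the 7 values at background, so neither it nor a correlation or mean of the probes over the 13 arrays measures how far they match. Among the 6 arrays where probe 2 was well above background, it was highest in control animal 6, followed by KI animals 6 and 1, while probe 1 was highest in KI animal 1 and lowest in KI animal 6.

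The animal that was high for *Slc16a10* was also high for T cell markers. In KI animal 1 the CD3 subunit genes of the T cell receptor complex, *Cd3g* and *Cd3e*, were at 0.85 and -3.05, against -7.62 to -5.81 and -9.22 to -7.80 in the other 12 animals. The B cell markers *Cd79b* and *Ms4a1* were not well above background in this animal, and *Cd79a* had no probe. *Cd3g* was the only one of the 6 lymphocyte markers to pass the filter. It was well above background only in KI animals 1, 2 and 3 and control animals 1, 3 and 5. The level of probe 1 and that of *Cd3g* had r = 0.90 (permutation p = 0.0169, adjusted 0.185 over 55 relations) and rho = 0.71 (permutation p = 0.0104, adjusted 0.117), and r = 0.51 without KI animals 1 and 4. The other *Cd3g* values lie at background, where they have no order, so these coefficients do not measure how far probe 1 and *Cd3g* vary together. The part of these cells in the *Slc16a10* value was not tested.

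*Slco1c1* was well above background in control animals 2 and 3, at -5.72 and -5.89, and in 0 of the 6 KI-treated animals. The other controls ran from -8.41 to -6.19 and the KI-treated animals from -8.94 to -5.99, all of these not well above background. With 2 of 13 arrays measured, no fold is given for this gene. *Ttr* was not well above background on any array although it was spotted 10 times on each. Only 3 of its 130 spots over the 13 arrays carried the flag, so its values, -9.37 to -8.00 in the KI-treated group and -8.44 to -7.87 in the control group, are bounds and no fold is given.

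*Crym*, the intracellular T3-binding protein, was also spotted 10 times, and all 130 of its spots were well above background. The KI-treated animals 1 to 6 were at -2.70, -2.59, -1.71, -3.31, -3.06 and -2.89, and the controls ran from -3.57 to -1.90 with a median of -2.67. Both groups spanned nearly the same range, with KI animal 3 the highest and control animal 5 the lowest. The means were -2.71 ± 0.55 (SD, n = 6) and -2.65 ± 0.50 (SD, n = 7), a difference of -0.06 (95% interval -0.64 to 0.52, exact permutation p = 0.841, limma adjusted p = 0.936), or 0.64 to 1.44-fold. The sign turned without control animals 4 and 6 (0.09) and with array weights (0.11).

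The 10 spots allow the variation of *Crym* between spots of one array to be set beside the spread between animals. Spots of one array had an SD of 0.07 to 0.12 with a median of 0.08, while the within-group SD between animals was 0.53. Spots with an outlier flag were left out first (124 of 130 used, 6 of 10 in KI animal 1), which can lower the SD between spots. Any error that the spots of an array share, such as that of labelling, is part of the SD between animals only. The highest and lowest animal differed 3.63-fold. The other tested members have 1 spot per array, so for them the error of a single spot is unknown.

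**Figure D4:**
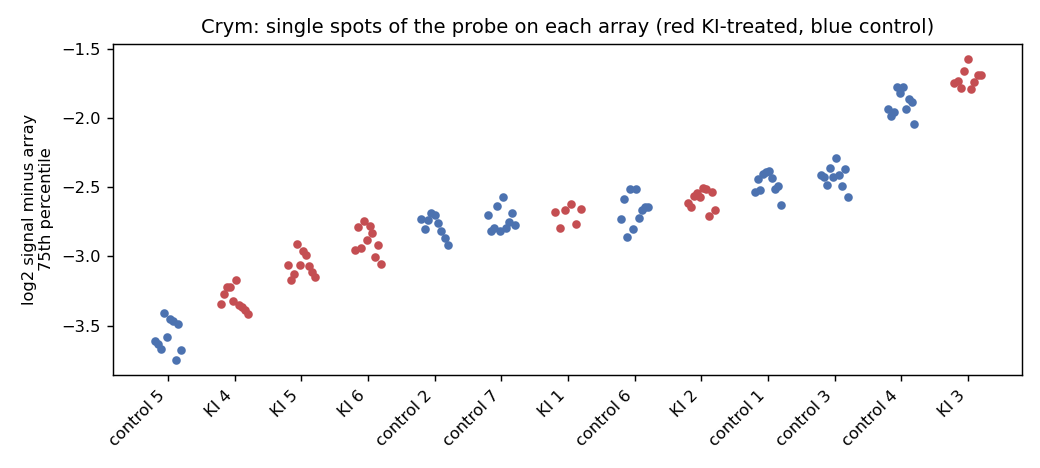
Level of each single *Crym* spot (log2 signal minus the array's 75th percentile, vertical axis) on each array, ordered by the array mean, red for KI-treated and blue for control animals. Spots with an outlier flag are left out. The remaining spots of one array lie close together, with SDs of 0.07 to 0.12, and the arrays of both groups are mixed along the axis.

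The levels of the members were also compared with each other over the 13 arrays, with group means subtracted, for 10 pairs of genes and the pair of *Slc16a10* probes, which rests mostly on background values of probe 2. After adjustment over the 11 relations 0 passed 0.05 by either coefficient, and 2 had an unadjusted permutation p below 0.05 by Pearson's r and 0 by Spearman's rho. *Dio1* and *Dio2* had r = 0.62 (permutation p = 0.0368, adjusted 0.202) and rho = 0.49 (permutation p = 0.101, adjusted 0.371). Without control animals 1 and 4 this r was 0.40. *Dio1* and *Crym* had r = -0.63 (permutation p = 0.0206, adjusted 0.202) and rho = -0.52 (permutation p = 0.0688, adjusted 0.371), and r was -0.44 without the same animals. With scan session means also subtracted, r was 0.50 for *Dio1* and *Dio2* and -0.30 for *Dio1* and *Crym*. A scan session holds 4 or 5 arrays, too few for a value within each.

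Against 11 marker lists of cell types that a thyroid sample can hold, 0 of 55 relations passed 0.05 after adjustment, with 7 below 0.05 unadjusted by r and 9 by rho in the permutation tests. The smallest adjusted permutation p, 0.108, belonged to the endothelial markers with *Dio1* (r = -0.72, rho = -0.72) and with *Crym* (r = 0.74, rho = 0.75). Without control animals 4 and 6 these were r = -0.69 and 0.78, and with scan session means also subtracted -0.31 and 0.40. The endothelial list (5 of 5 genes tested) had levels of 0.50 to 0.92 in the KI-treated group and 0.60 to 1.03 in the control group. *Dio1* had r = -0.44 with the follicular markers, whose mean level was 2.87 to 3.17 in the KI-treated group and 2.78 to 3.01 in the control group. This r was 0.02 with quantile normalization, -0.25 without subtraction of group means and -0.11 with scan session means also subtracted. With the markers of C cells (5 of 5 genes tested), the calcitonin-producing cells of the thyroid, *Dio1* had r = 0.61 (permutation p = 0.0143, adjusted 0.185) and rho = 0.61 (permutation p = 0.0149, adjusted 0.117), with r = 0.72 without KI animal 6 and control animal 7 and 0.16 with scan session means also subtracted. *Crym* had r = -0.68 (permutation p = 0.0143, adjusted 0.185) and rho = -0.76 (permutation p = 0.0063, adjusted 0.117) with the same markers. With scan session means also subtracted this r was -0.32. The C cell markers were at 1.29 to 2.03 after KI and 1.21 to 1.94 after saline. With the parathyroid markers (3 of 3 tested) *Dio1* had r = -0.63 (permutation p = 0.0589, adjusted 0.405) and rho = -0.72 (permutation p = 0.0239, adjusted 0.151). This r was -0.38 without control animals 2 and 3, -0.64 with scan session means also subtracted and -0.18 without subtraction of group means. The parathyroid markers were at 1.41 to 1.87 after KI and 0.67 to 1.89 after saline. With the adipocyte markers *Dio1* had r = 0.56 (permutation p = 0.0359, adjusted 0.329) and rho = 0.44 (permutation p = 0.15, adjusted 0.636). With scan session means also subtracted this r was 0.54. *Dio1* had r = 0.14 with the skeletal muscle markers, of which 7 of 7 were lower on average in the KI-treated group (median difference -1.33, 0 of 7 past the adjusted threshold and 1 with an unadjusted limma p below 0.05). The part of the makeup of the samples in the *Dio1* difference was not tested.

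The genes whose pattern over the 13 arrays was most like that of a member, among 12788 other named genes and with group means subtracted, are given as a description. For *Dio1* they were *Slmo2* (r = 0.98, rho = 0.95), the aminoacylase gene *Acy1* (r = 0.97, rho = 0.91) and the aldehyde reductase gene *Akr1a1* (r = 0.97, rho = 0.93), with r = 0.94, 0.98 and 0.93 left without control animals 1 and 4. For *Dio2* they were *Sipa1*, *Armc6* and *Hars*, the gene of histidyl-tRNA synthetase, with r = 0.88, 0.86 and 0.85, and 0.66, 0.77 and 0.57 without KI animal 1 and control animal 4. For *Dio3* they were *Kin*, *Myrf* and *Dcbld1* with r = 0.86, 0.82 and 0.80. For *Slc16a10* they were *Nkg7* and *Tnfrsf18*, both known from lymphocytes, and *Prrt4*, with r = 0.97, 0.95 and 0.93, and 0.79, 0.86 and 0.77 without KI animals 1 and 6. For *Crym* they were the transcription factor genes *Lmx1b* and *Elf3* and the small GTPase gene *Rab7b* with r = 0.90, 0.85 and 0.84.

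The genes around these members were followed in 6 lists, 54 genes in all, of which 51 had a probe and 45 had a tested probe, the brightest one standing for the gene. After adjustment limma called 0 of 45, and 4 of 45 had an unadjusted p below 0.05, 3 of them higher in the KI-treated group and 1 lower, against 11.3% of all tested probes. The 4 were *Scly*, *Papss1*, *Pkm* and *Hr*, all with adjusted p of 0.44. Without control animals 4 and 6 they differed by 0.24, 0.16, 0.17 and -0.31, and 0 of the 45 genes then had an unadjusted limma p below 0.05 (adjusted p of the 4 from 0.593 to 0.70).

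Among other carriers of thyroid hormone, 7 of 14 genes were tested and 0 had an unadjusted limma p below 0.05. Their median difference was 0.20, against 0.00 over all tested probes, with 6 above 0 and 1 below. *Slc3a2*, which encodes the heavy chain that LAT transporters need, differed by 0.44 (95% interval -0.04 to 0.92, limma adjusted p = 0.456), *Slco3a1* by 0.37 (limma adjusted p = 0.463), *Slco4c1* by 0.20 and *Slco2b1* by 0.45 (95% interval -0.47 to 1.36). Of the genes of hormone carriers and binding proteins 4 of 5 were tested, *Serpina7*, for thyroxine-binding globulin, having no probe, and the median difference was -0.24. *Pkm*, whose M2 product is also known as a cytosolic T3-binding protein, differed by 0.32 (limma p = 0.0485, exact permutation p = 0.0484), and its 3 other probes differed by 0.18 to 0.36. *Alb* differed by -0.59 (95% interval -1.20 to 0.02), *Rbp4* by -0.47 and *Aldh1a1* by -0.01.

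Deiodinases need selenocysteine, and all 11 genes listed for selenium supply and selenoprotein synthesis were tested, with a median difference of -0.03. *Scly*, for selenocysteine lyase, differed by 0.38 (limma p = 0.0272, exact permutation p = 0.0315). *Trnau1ap* differed by 0.29 and *Sepsecs* by -0.09. *Pstk*, the kinase of the selenocysteine tRNA, differed by -0.15 (95% interval -0.32 to 0.03, exact permutation p = 0.0239) through its brighter probe and by 0.52 through the other, so its direction depended on the probe. DIO2 protein is removed by ubiquitination, and 6 of 6 genes of that process were tested with differences from -0.11 to 0.05 and a median of -0.05. They include *Wsb1* (0.05), *March6* (-0.05), *Ube2g2* (-0.08) and *Ube2j1* (-0.11).

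Sulfation, glucuronidation and deiodination of iodotyrosines were covered by 7 tested genes of 8, with a median difference of -0.04. *Papss1*, which makes the sulfate donor, differed by 0.40 (95% interval 0.03 to 0.78, limma p = 0.0372, exact permutation p = 0.0192), with levels of -1.17 to -0.86 in the KI-treated group, below which 4 of the 7 controls lay, the control range being -2.12 to -1.10. *Sts* differed by -0.10, *Ugt1a6* by -0.11 and *Iyd*, the deiodinase that recovers iodide from iodotyrosines, by -0.05 (95% interval -0.56 to 0.45). Of the hormone receptors and responsive genes 10 of 10 were tested, with a median difference of -0.05. *Hr*, a corepressor gene induced by T3 in brain, differed by -0.71 through its brightest probe (limma p = 0.0298, exact permutation p = 0.035), with levels of -0.44 to 0.03 against -0.27 to 1.81 in the controls, while its 2 other tested probes differed by 0.03 and 0.09. *Thra* differed by -0.21, *Ncoa1* by -0.14 and *Thrsp* by 0.16.

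**Figure D5:**
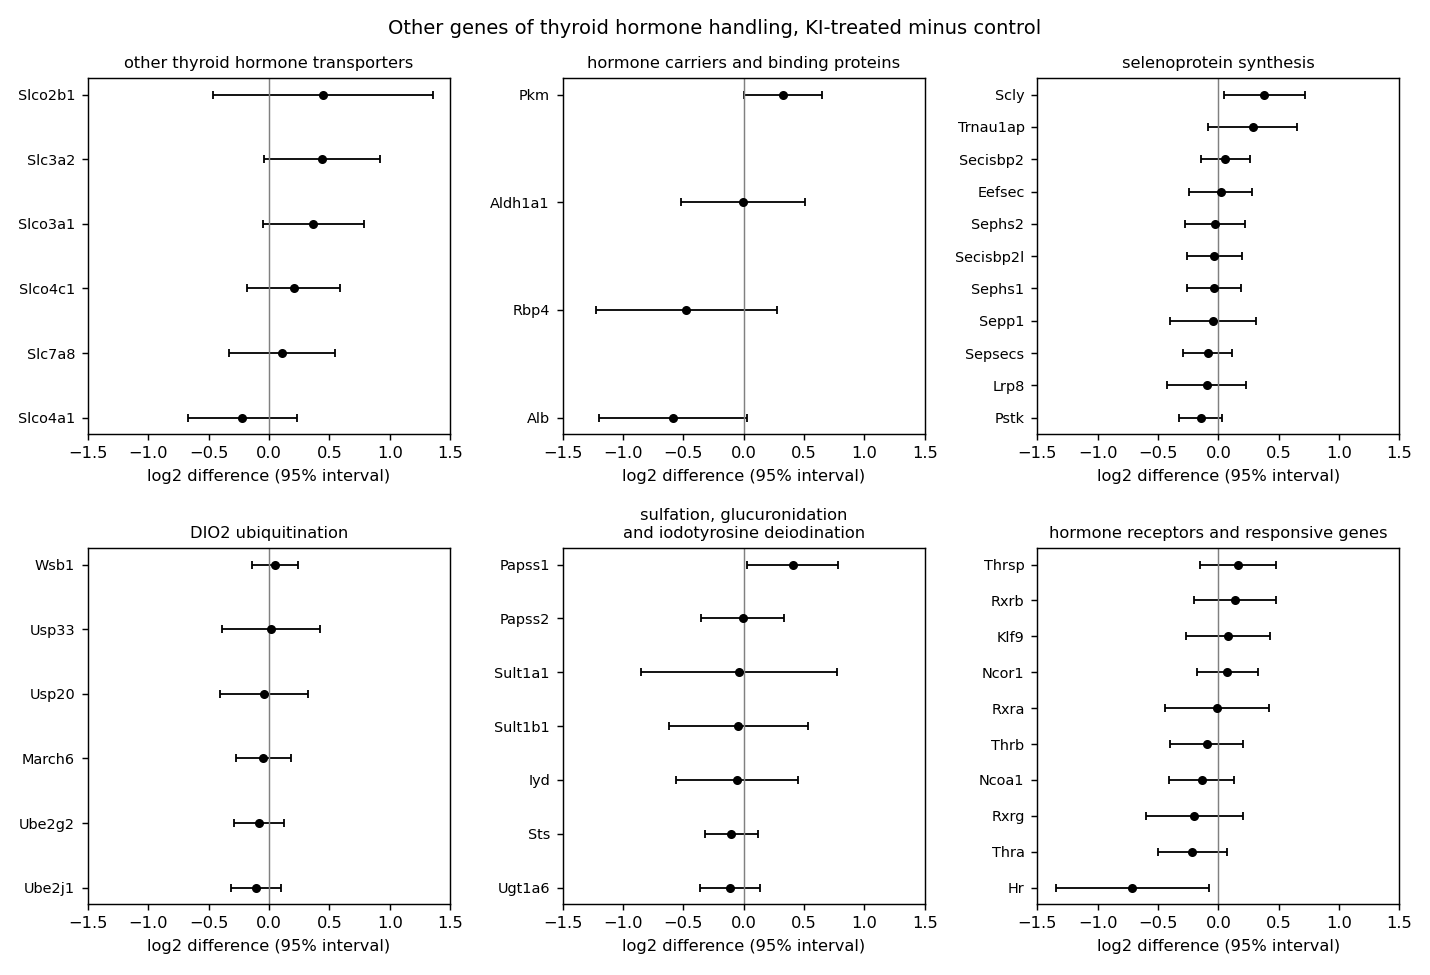
Difference in level, KI-treated minus control (log2, horizontal axis, 95% intervals from limma), for 44 of the 45 tested genes of the 6 lists, each by its brightest probe. Only the intervals of *Scly*, *Papss1*, *Pkm* and *Hr* leave out 0, and 0 of the 45 passed the adjusted threshold.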

How the data were processed

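RNA of 13 rat thyroids was hybridised on one-colour Agilent arrays of 62976 features. The authors deposited 1 scanner file per array holding spot intensities that Agilent Feature Extraction (version 10.7.3.1, per the file headers) had background-subtracted and detrended but not normalized across arrays. A deposited log2 table, whose normalization is not given in the sources used here, served as an alternative and held 0 columns of other samples.

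Gene spots without an outlier flag were used, log2 of the intensity minus the array's 75th percentile over gene spots was taken, and spots of one probe were averaged (45598 probes). A probe counted as well above background on an array where 50% or more of its spots carried the flag of the software. The 25717 probes so flagged on at least 6 arrays were tested in limma (version 3.58.1, R 4.3.3) (lmFit, eBayes, Benjamini-Hochberg adjustment, threshold 0.05). The fit was also run on simulated arrays with independent noise for each probe and equal array quality, which does not show how it behaves on the real arrays. Single values were tested by exact permutation, and correlations with 100000 permutations within groups (numpy 2.4.6). No gene spot was saturated, and 67 probes lacked a value on some array.

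The genes named are the members, the 3 genes most like each tested member, and the 4 genes of each list with the smallest unadjusted p, and the lymphocyte, follicular and parathyroid markers were added after their values were seen. Some genes of the lists are counted but not reported here by name. Members and lists were chosen with earlier results of these data known. Alternatives were quantile normalization, normexp (offset 50), the deposited values, other filters, slide, scan session or replicate number as a block, trended and robust variances, array weights, an ordinary t-test and leaving out each array. The percentile over averaged probes, the removal of control animal 4, alone for spreads and with 6 for differences, and the relations with array intensity were added after seeing the data. The sources used here do not say that replicate numbers pair the animals. Same-numbered animals had correlations of -0.109 to 0.071 in their deviations from the group means, and pairing by litter was not tested.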

Additional observations from a re-analysis of the deposited data

Results flagged for a closer look

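Over the 12 groups formed by the 6 tested probes and the 2 treatments, 1 value stood apart from its group by Dixon's criterion, and chance alone gives about 1 in 20. *Slc16a10* probe 1 was at -3.68 in KI animal 1, while the other 5 KI-treated animals lay between -5.45 and -4.93, a gap of 0.704 of the range.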

How the results depend on the processing

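The sign of the *Dio1* difference held in all 15 processing alternatives (0.28 to 0.66). With the other filters, the trended and robust variances and the t-test the sign could not change, because these leave the difference at 0.55. The unadjusted p of *Dio1* (limma, or the t-test in 1 of them) was below 0.05 in 11 of the 15, and its adjusted p ran from 0.199 to 0.64. With the replicate number as a block the *Dio1* difference was 0.58 (limma adjusted p = 0.588), the member calls stayed at 0, and so did the calls over all probes. Calls over all probes after adjustment were 0 in each alternative except array weights, which gave 7, and leaving out 1 array, which gave 0 to 1 (1 without control animal 2). Member calls after adjustment were 0 throughout.
The other member differences changed sign, none with an adjusted p below 0.05, and the cause was not tested. Over the processing alternatives they ran from -0.51 to 0.24 for *Dio2*, -0.11 to 0.44 for *Dio3*, -0.0495 to 0.13 and -0.73 to 0.0478 for *Slc16a10* probes 1 and 2, and -0.16 to 0.11 for *Crym*, the 0.44 and -0.73 with slide as a block. Within the scan sessions *Slc16a10* probe 2 differed by -2.21, 0.81 and -0.15. With quantile normalization *Dio2* was -0.0552. With normexp and the 75th percentile *Dio2* was -0.147, *Dio3* -0.11 and *Slc16a10* probe 1 -0.0495, and with normexp and quantile normalization *Dio2* was -0.0666 and *Dio3* -0.0359. The deposited values gave -0.0778 for *Dio2*, -0.0457 for *Dio3* and 0.0455 for *Slc16a10* probe 2. Array weights gave -0.32 for *Dio2*, 0.0478 for *Slc16a10* probe 2 and 0.11 for *Crym*. The percentile over averaged probes gave -0.0648 for *Dio2* and -0.0202 for *Dio3*, and removal of control animals 4 and 6 gave -0.51 for *Dio2* and 0.0876 for *Crym*. The mean of both *Slc16a10* probes was -0.0657, and their correlation was 0.16, or -0.21 without the 2 farthest arrays, and both rest on values of probe 2 of which 7 of 13 lie at background. Leaving out 1 array at a time gave -0.28 to 0.24 for *Dio2*, -0.17 to 0.36 for *Dio3*, -0.15 to 0.20 and -0.62 to 0.25 for *Slc16a10* probes 1 and 2, and -0.26 to 0.0662 for *Crym*. The extremes came without control animals 4 and 7 for *Dio2*, KI animal 5 and control animal 7 for *Dio3*, KI animals 1 and 6 and KI animals 6 and 3 for the *Slc16a10* probes, and KI animal 3 and control animal 4 for *Crym*. Spots near background, as for *Slc16a10* probe 2, *Slco1c1* and *Ttr*, limit what can be read from those genes, and 13 arrays limit the precision.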
